A study of Capra hircus with 2 samples.

Results

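miR-21, a microRNA (miRNA) that rodent work ties to the survival of spermatogonia, was followed in sorted testicular cells of Saanen dairy goats. Its entries were found by name, as those whose representative miRNA is miR-21 once species prefix, copy number and arm are removed. The rule found 7 of 4937 listed entries, 4 of 2599 in the CD49f-positive library, against 3 of 2338 in the CD49f-negative library, which form 2 of the 1808 named miRNA arms. The CD49f-positive library came from cells bound in magnetic sorting by CD49f, the integrin alpha-6 chain used to enrich spermatogonial stem cells, and the CD49f-negative library from cells not bound. Both came from 3 testes of 3 goats aged 5 months, after enzyme digestion and a night of plating meant to remove Sertoli and myoid cells. Whether the goats were pooled is not stated. The series text speaks of triplicates, but only 1 library per group is listed. With 1 library per group there is no replicate check and no p-value. The 95% intervals are exact or, where named, approximate, and cover counting error only. Reads copied by PCR and not tagged per molecule are not independent, so these intervals are too narrow.

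A miRNA is cut from a hairpin precursor into a 5p and a 3p arm. Usually 1 arm is loaded into the silencing complex, where bases 2 to 8, the seed, pair with messenger RNAs. The miR-21 gene lies beside VMP1 in mammals. Its 5p arm represses PDCD4, a regulator of cell death, and is abundant in many cell types, fibroblasts and white blood cells among them. In mouse cultures enriched for spermatogonial stem cells, blocking miR-21 raised cell death, and the transcription factor ETV5 acts on its promoter.

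The deposited goat hairpin had 92 bases on the plus strand of chromosome 19, at chr19:10239516-10239607 in a genome build that is not given in the sources used here. It is shown in full because both arms come from it, with the listed reads of both arms in capitals.
miR-21 goat hairpin: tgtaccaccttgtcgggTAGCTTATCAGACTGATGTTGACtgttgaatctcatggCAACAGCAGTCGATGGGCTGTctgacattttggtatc
The listed 5p read covered 10239533 to 10239555 and the listed 3p read 10239571 to 10239591, with 15 bases between them. In the deposited fold, with 31 base pairs and a free energy of -42.3 kcal/mol, 17 of 23 bases of the 5p read were paired, 16 of them to the 3p read. The median free energy over 386 known hairpins placed on the genome in the CD49f-positive list was -38.45 kcal/mol. Their median GC content was 48.4%, against 46.7% deposited for miR-21. In the RefSeq annotation of goat assembly ARS1.2, MIR21 also has 92 bases on chromosome 19 and overlaps no protein-coding gene. VMP1 is its nearest protein-coding neighbour on one side and TUBD1 on the other.

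The listed read of an arm is 1 representative sequence with its number of copies. Each is set beside the cattle miRNA it was matched to, to show where the ends differ, with the seed in capitals.
miR-21-5p listed read: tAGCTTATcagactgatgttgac
miR-21-5p cattle reference: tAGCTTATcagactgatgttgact
miR-21-3p listed read: cAACAGCAgtcgatgggctgt
miR-21-3p cattle reference: aACAGCAGtcgatgggctgtct
The 5p read had 23 bases, 1 fewer at its 3′ end than the cattle reference of 24, and kept its 5′ end and so its seed. No other named arm in either library carried that seed in its listed read. The 3p read had 21 bases against 22 in the cattle reference and began 1 base earlier, which moves its seed by 1 base. This 3p sequence had only 16 copies among 34 reads in the CD49f-positive library, and 4 among 13 in the CD49f-negative library. The seed of the cattle 3p reference occurred in 1 other arm, miR-214-3p, which had 1067 reads in the CD49f-positive library, against 383 in the CD49f-negative library. The shifted seed of the listed 3p read occurred in no other named arm.

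Nearly all miR-21 reads lay in the entry placed on chromosome 19. That entry held 128250 5p reads and 34 3p reads in the CD49f-positive library, against 65665 and 13 in the CD49f-negative library. The other 3 entries together added 4 reads. In the CD49f-positive library, a hairpin named for the Tasmanian devil was given 1 read on each arm. Both reads had 15 bases and 1 mismatch, and both matched that hairpin before the start of its mature miRNA, so they are not reads of the miR-21 arms themselves. In the CD49f-negative library, a hairpin named for the platypus was given 2 reads, with 1 listed sequence that shows what separates it from the goat arm.
miR-21-5p platypus-named read: catagcttatcagactgatgttg
It began 2 bases before the usual 5′ end, and both of these bases differed from the goat hairpin. The name miR-21c, outside the rule, had 1 read on each arm in the CD49f-positive library, each of 15 bases with 1 mismatch. No entry under another name, or with none, held the first 15 bases of the 5p read or 15 bases from the second base of the 3p read.

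miR-21-5p was among the most abundant miRNAs of both libraries. It had 128251 of 8196507 named miRNA reads in the CD49f-positive library, a share of 1.56% (95% interval 1.56 to 1.57), and 65667 of 3064462 in the CD49f-negative library, a share of 2.14% (2.13 to 2.16). It ranked 7 of 1455 arms with reads in the CD49f-positive library, against 6 of 1291 in the CD49f-negative library. The arms above it held 77.2% of named reads in the CD49f-positive library, against 72.4% in the CD49f-negative library. In the CD49f-positive library it lay below miR-34c-5p at 2.13% and miR-26a-5p at 1.66%, and above let-7f-5p at 1.39% and let-7a-5p at 1.33%. In the CD49f-negative library it lay below miR-99a-5p at 10.2% and miR-10b-5p at 7.55%, and above miR-26a-5p at 1.68% and miR-148a-3p at 1.22%. Its order with miR-26a-5p, a miRNA of many differentiated tissues, thus turned between the libraries, while miR-26a-5p itself held nearly the same share in both. The intervals of these neighbours did not overlap that of miR-21-5p, although without replicates the spread between libraries of one kind is unknown.

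**Figure D1:**
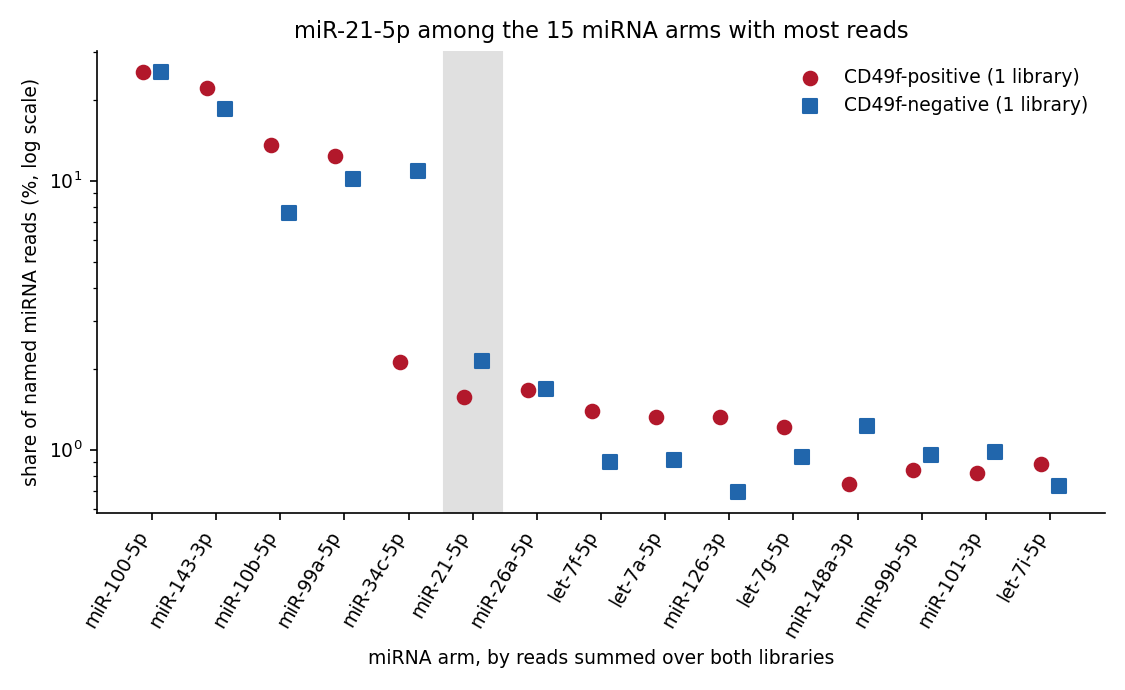
Share of named miRNA reads (%, log scale) of the 15 miRNA arms with most reads, as circles for the CD49f-positive library and squares for the CD49f-negative library, 1 library each; miR-21-5p is shaded. miR-21-5p held 1.56% in the CD49f-positive library, against 2.14% in the CD49f-negative one, below the 5 leading arms by summed reads, and miR-34c-5p shows the widest gap of those drawn.

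The share of miR-21-5p was 0.730 times as high in CD49f-positive cells as in CD49f-negative cells (interval 0.723 to 0.737), a log2 ratio of -0.45 (-0.47 to -0.44). To be called, a miRNA needed 100 or more reads over both libraries, a 2-fold or larger ratio and an interval that leaves out equal shares. miR-21-5p met no call. Of 298 arms with 100 reads, 24.8% were called lower in CD49f-positive cells and 2.01% higher, 26.8% in all. The median log2 ratio of these arms was -0.43, with quartiles at -0.97 and 0.01. miR-21-5p lay next to that median, with 152 arms at a higher ratio and 145 at a lower one. This place in the order does not depend on how the libraries are scaled. Among the 56 arms with at least 10000 reads, closer to it in abundance, 43 had a higher ratio and 12 a lower one, so miR-21-5p stood in the lower part of the abundant arms.

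The direction of miR-21-5p between the libraries depended on the scaling. TMM scaling, which trims extreme miRNAs before it sets the libraries level, raised every log2 ratio by 0.44 when computed over the 592 arms with at least 10 reads. The log2 ratio of miR-21-5p was then -0.01 (-0.02 to 0.00), with 13.4% of arms called lower and 9.06% higher. Scaling by the median of ratios moved all log2 ratios up by 0.60, which put miR-21-5p at 0.15, above equal shares. TMM gave -0.11 over the 298 arms with at least 100 reads, and -0.20 over the 140 arms with at least 1000 reads. The median of ratios gave -0.02 and -0.21 over those arms, so all of these values lay below equal shares. Over all 1808 arms, of which only 592 had at least 10 reads, TMM gave 0.37 and the median of ratios 0.38. miR-21-5p reached 2-fold under none of the 16 scalings and sets of reads that were run, whose log2 ratios lay between -0.59 and 0.38. The lowest value left miR-34c-5p out of the total.

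**Figure D2:**
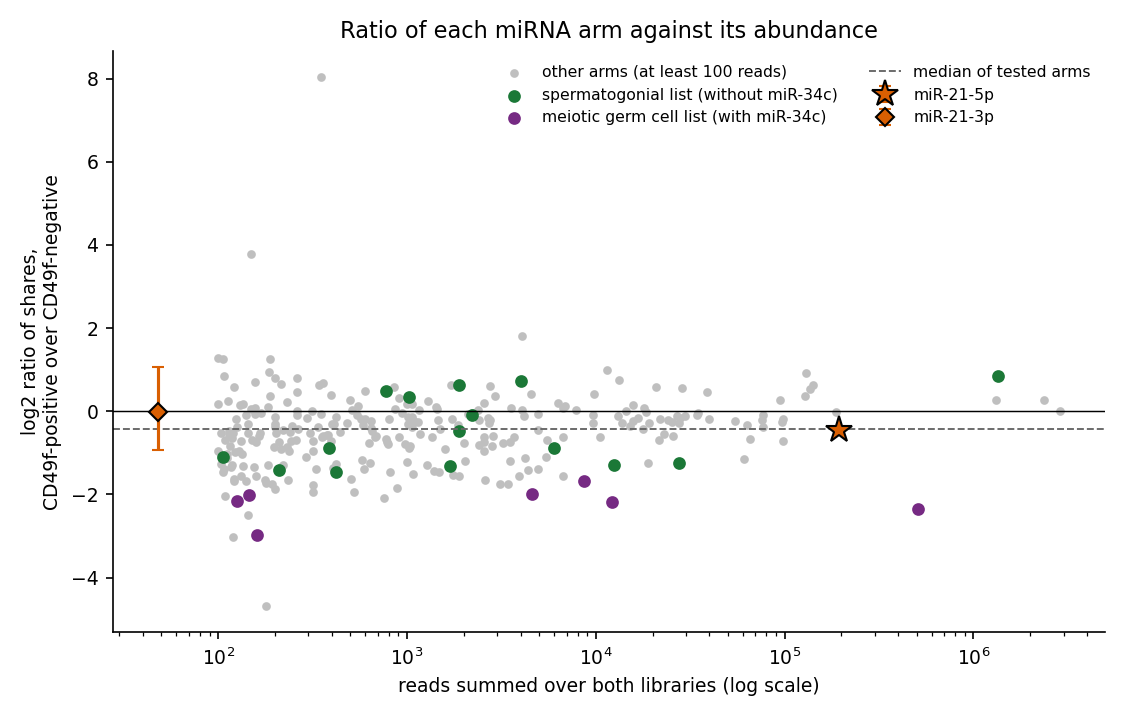
Log2 ratio of the share in CD49f-positive over CD49f-negative cells against reads summed over both libraries (log scale), for 298 miRNA arms with at least 100 reads and for miR-21-3p, with 48 reads; bars are 95% counting intervals of both miR-21 arms. miR-21-5p, at -0.45, sits on the dashed median of -0.43, miR-21-3p has a wide interval, and the meiotic germ cell list lies lowest of the coloured groups; the point near the top had 0 CD49f-negative reads, so its height depends on the reads added.

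**Figure D3:**
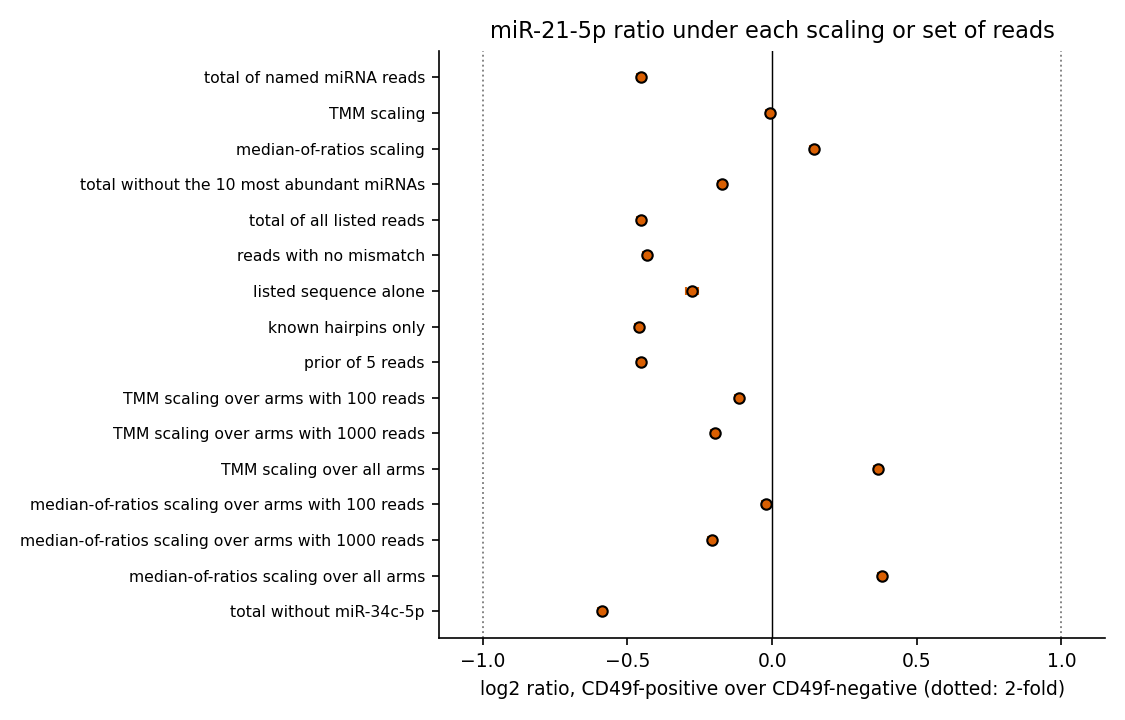
Log2 ratio of miR-21-5p, CD49f-positive over CD49f-negative, under 16 scalings or sets of reads, with 95% counting intervals, most of them narrower than the points. All points lie between the dotted lines at 2-fold, 13 below 0 and 3 above it. Those above 0 are the median of ratios over arms with at least 10 reads, and TMM and the median of ratios over all arms.

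Ratios taken inside each library need no scaling between libraries, and they set miR-21-5p against the most abundant arm of each list of cell type markers. Other arms of a list can lie on the other side of miR-21-5p. For each read of miR-34c-5p, a miRNA of meiotic and post-meiotic germ cells, there were 0.736 reads of miR-21-5p in the CD49f-positive library, against 0.197 in the CD49f-negative library. That is 3.73 times as many in CD49f-positive cells (approximate interval 3.69 to 3.78). For each read of miR-126-3p, made in endothelial cells, there were 1.19 reads of miR-21-5p in the CD49f-positive library, against 3.08 in the CD49f-negative library, 0.386 times as many (0.379 to 0.392). For each read of miR-143-3p, made by smooth muscle cells and fibroblasts, the values were 0.0707 in the CD49f-positive library, against 0.116 in the CD49f-negative library, 0.608 times as many (0.602 to 0.614). Of the miRNAs linked in rodents to spermatogonia, miR-10b-5p had the most reads over both libraries, although miR-34c-5p had more in the CD49f-negative one. For each read of miR-10b-5p there were 0.115 reads of miR-21-5p in the CD49f-positive library, against 0.284 in the CD49f-negative one. That is 0.406 times as many (0.402 to 0.411). miR-21-5p was thus higher against miR-34c-5p and lower against miR-126-3p, miR-143-3p and miR-10b-5p in CD49f-positive cells. Of 17 other measured arms linked in rodents to spermatogonia, 6, miR-10b-5p among them, had a higher ratio than miR-21-5p, and 11 a lower one. For each read of miR-140-3p, from somatic cells such as cartilage and gonadal cells, there were 10.9 reads of miR-21-5p in the CD49f-positive library, against 11.0 in the CD49f-negative library, 0.985 times as many (0.954 to 1.02). Against miR-451-5p of red blood cells the CD49f-positive value was 0.893 times the CD49f-negative one (0.865 to 0.922), and against miR-342-3p of white blood cells 1.19 times (1.12 to 1.25). Against miR-375-3p, an epithelial miRNA with few reads here, it was 3.12 times (2.69 to 3.61).

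The markers themselves differed between the libraries, and their part in the miR-21 values was not tested. Their calls stand beside 24.8% of all tested arms called lower and 2.01% higher with the read total, and 13.4% lower and 9.06% higher with TMM. The 10 listed arms of the meiotic miRNAs miR-34b, miR-34c and miR-449 summed to 2.25% of reads in the CD49f-positive library, against 11.4% in the CD49f-negative library, with 7 of 7 measured arms called lower, with TMM too, and all 7 at a lower ratio than miR-21-5p. Arms of smooth muscle, myoid and fibroblast miRNAs summed to 23.0% in the CD49f-positive library, against 19.5% in the CD49f-negative one, with 2 of 8 called lower, a share near that of all arms, and with TMM 0 lower and 1 higher. miR-143-3p alone held 22.1% in the CD49f-positive library, against 18.4% in the CD49f-negative one, while 5 of the 8 arms had a smaller share in CD49f-positive cells. Against miR-21-5p, 5 of the 8 had a higher ratio and 3 a lower one, miR-143-5p at -0.76, miR-145-5p at -1.24 and miR-214-5p at -1.39. Both arms of endothelial miR-126 summed to 1.43% in the CD49f-positive library, against 0.755% in the CD49f-negative one, with none called by the read total and both called higher with TMM. White blood cell miRNAs summed to 0.0616% in the CD49f-positive library, against 0.0926% in the CD49f-negative library, with 0 of 5 measured arms called, and 1 higher with TMM. Of these 5, miR-155-5p alone had a higher ratio than miR-21-5p. Red blood cell miRNAs summed to 0.296% in the CD49f-positive library, against 0.372% in the CD49f-negative one, with 0 of 3 called under either scaling. Of these 3, miR-144-3p alone, at -0.61, had a lower ratio than miR-21-5p. For somatic gonadal miRNAs the sums were 0.191% in the CD49f-positive library, against 0.296% in the CD49f-negative one, with 1 of 4 called lower, miR-202-5p at -1.38, a share near that of all arms, and none with TMM. The 4 arms lay 2 above and 2 below miR-21-5p. For epithelial miRNAs they were 0.0067% in the CD49f-positive library, against 0.0245% in the CD49f-negative one, with 2 of 2 called lower, with TMM too. miR-205, of the epithelial list, was listed in neither library. In such mixed samples, fewer cells of a type and less miRNA per cell cannot be told apart.

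The 3p arm of miR-21 was rare. It had 35 reads in the CD49f-positive library, 1 of them the short read named for the Tasmanian devil, against 13 in the CD49f-negative library. That is 0.000427% of named CD49f-positive reads (0.000297 to 0.000594) and 0.000424% of named CD49f-negative reads (0.000226 to 0.000725). Its log2 ratio was -0.02 (-0.94 to 1.05), which leaves any difference up to about 2-fold either way undetectable at this depth, and with 48 reads in all it fell under the minimum for a call. The 3p arm made up 0.0273% of miR-21 reads in the CD49f-positive library (0.0190 to 0.0379), against 0.0198% in the CD49f-negative library (0.0105 to 0.0338). There were 3664 reads of the 5p arm for each 3p read in the CD49f-positive library, against 5051 in the CD49f-negative library, and the intervals of the 3p share overlapped. Few miRNAs with both arms listed were as one-sided, but those with 1 arm listed were left out. A miRNA with few reads can hardly show so small a lesser share, so these counts depend on depth. Of 178 miRNAs with both arms listed and at least 100 reads in the CD49f-positive library, 11 had a smaller share on the lesser arm, and the median share was 1.37%. In the CD49f-negative library 5 of 156 had a smaller one, and the median was 2.16%.

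The make-up of the 5p reads differed between the libraries. The listed 23-base sequence had 62708 copies in the CD49f-positive library, 48.9% of miR-21-5p reads (48.6 to 49.2), and 28426 copies in the CD49f-negative library, 43.3% (42.9 to 43.7). Other reads with no mismatch made up 41.6% in both. Reads with a mismatch made up 9.46% in the CD49f-positive library (9.30 to 9.62), against 15.2% in the CD49f-negative library (14.9 to 15.4). The listed sequence alone thus had a log2 ratio of -0.28 (-0.30 to -0.26), the other reads with no mismatch -0.45 (-0.47 to -0.43), and reads with a mismatch -1.13 (-1.17 to -1.10). The last of these was past 2-fold with the read total, and was -0.69 with TMM. Counting reads with no mismatch alone, in miR-21-5p and in the totals, miR-21-5p held 2.10% in the CD49f-positive library, against 2.84% in the CD49f-negative library, a log2 ratio of -0.43, and kept both ranks.

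Other miRNAs showed the same gap in mismatches. Of 202 arms with at least 100 reads in each library, 179 had a smaller mismatched share in the CD49f-positive library and 22 a larger one. The median difference was -5.76 percentage points, CD49f-positive minus CD49f-negative, and that of miR-21-5p was -5.69, with 104 arms at a lower difference and 97 at a higher one. miR-21-5p itself was among the better matched arms. Its mismatched share was below that of 194 of 245 arms with 100 reads in the CD49f-positive library, against 176 of 206 in the CD49f-negative library. Over all named reads the share was 32.7% in the CD49f-positive library, against 36.0% in the CD49f-negative library. The most copied sequence was the same in both libraries for miR-21-5p, as for 167 of these 202 arms. A lead sequence of 23 bases was found for 33 of the 202 arms in the CD49f-positive library, against 34 in the CD49f-negative library, and the median was 22 bases in both.

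**Figure D4:**
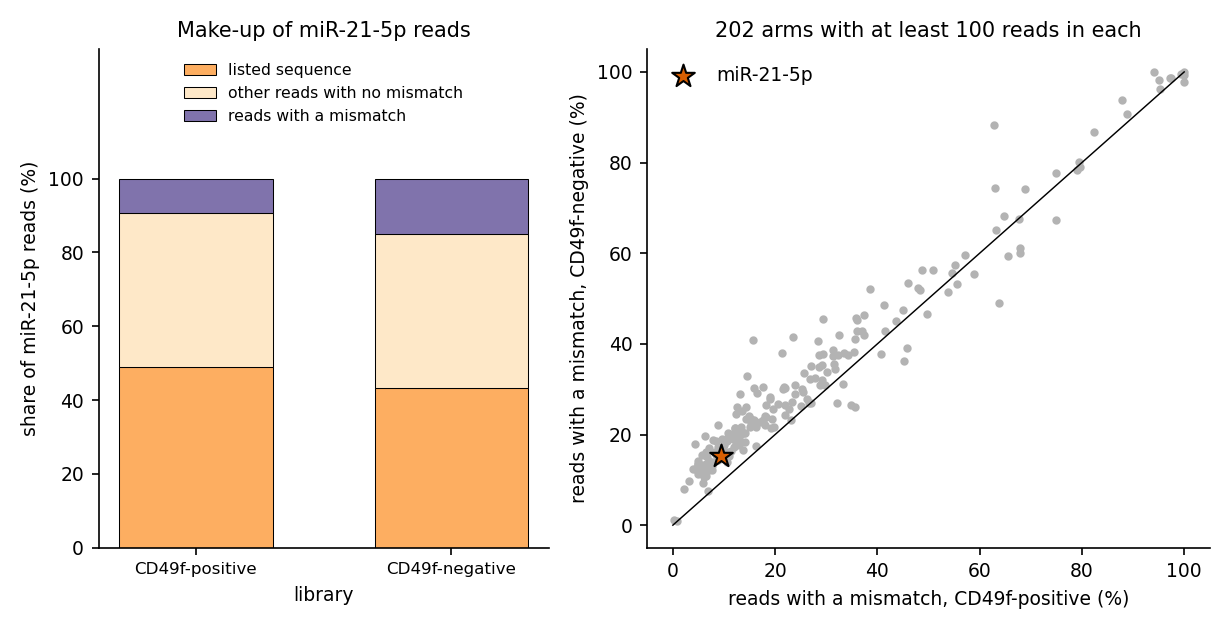
Left, share of miR-21-5p reads (%) from the listed 23-base sequence, other reads with no mismatch and reads with a mismatch, in the CD49f-positive and the CD49f-negative library. Right, share of reads with a mismatch (%) in both libraries for 202 arms with at least 100 reads in each, with the line of equal shares; miR-21-5p, at 9.46% in the CD49f-positive library, against 15.2% in the CD49f-negative one, lies above the line with most other arms.

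miR-21 belongs to a list of 16 miRNAs linked in rodents to undifferentiated spermatogonia, and its 5p arm was the third most abundant arm of that list in both libraries. Only miR-10b-5p and miR-34c-5p had more reads, with 13.6% for miR-10b-5p in the CD49f-positive library, against 7.55% in the CD49f-negative library. miR-21-5p made up 8.84% of the list's summed reads in the CD49f-positive library, against 10.0% in the CD49f-negative library. Of the other 17 measured arms, 8 were called lower, none was called higher, and 9 met no call, beside 24.8% and 2.01% of all arms. With TMM, 3 were lower and 3 higher. Both arms of miR-34c, which is also on the meiotic list, are among the 8 and among the 3 lower with TMM. The list's median log2 ratio without miR-21 was -0.89, beside -0.43 over all tested arms, and 6 arms lay above miR-21-5p and 11 below.

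The arms above miR-21-5p in that list came from 4 miRNAs. miR-10b-5p, from a HOX gene cluster, had a log2 ratio of 0.85 (0.84 to 0.85), and miR-10b-3p one of 0.49. miR-224-5p was at 0.73, from 3272 CD49f-positive reads against 739 CD49f-negative reads. miR-221-5p was at 0.62, miR-222-3p at 0.33 and miR-221-3p at -0.09 (-0.23 to 0.04); miR-221 and miR-222 restrain KIT, a receptor of differentiating spermatogonia, in mice. None of these reached 2-fold with the read total.

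Of the arms with a lower ratio than miR-21-5p, miR-34c-5p had the lowest among those of the list with at least 100 reads, a log2 ratio of -2.35, followed by miR-34c-3p at -2.02. miR-31-5p was at -1.47, miR-182-5p, with 105 reads in each library, at -1.42, and miR-183-5p, of the same sensory-cell cluster, at -1.09. miR-106a-5p and miR-20a-5p, miRNAs of proliferating cells, were at -1.33 and -1.24, and miR-146b-5p at -1.30. These 8 arms were the ones called lower. Most miR-106a-5p reads had a mismatch, 88.8% in the CD49f-positive library, against 90.7% in the CD49f-negative one. Few of its reads thus match that name exactly. For miR-146b-5p the mismatched share was 63.8% in the CD49f-positive library, against 49.0% in the CD49f-negative one. Once mismatched reads were left out, miR-106a-5p stood at -1.13 (-1.57 to -0.67) and miR-146b-5p at -1.87. miR-135a-5p and miR-204-5p, both at -0.89, and miR-146a-5p, a brake on innate immune signalling, at -0.48, met no call. miR-544 had 24 reads in the CD49f-positive library, against 7 in the CD49f-negative library over both arms, too few for a call.

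The genes for miR-21 and several other miRNAs are switched on by STAT3, AP-1 or NF-kB, factors active in inflammation and growth. Beside miR-21-5p, 8 arms of that list were measured, of which 2 were called lower, miR-146b-5p and miR-31-5p, and none higher, a share near the 24.8% and 2.01% of all arms. With TMM, 1 was lower and 2 were higher. Their median log2 ratio was 0.11, against -0.43 over all tested arms, with 5 above miR-21-5p and 3 below. miR-155-5p, made in activated white blood cells, was at 0.59 (0.35 to 0.85), from 687 reads in the CD49f-positive library, against 170 in the CD49f-negative library. miR-181b-5p was at 0.31 (0.09 to 0.54), from 698.5 CD49f-positive and 210.5 CD49f-negative reads. miR-21-5p had over 10 times as many reads as any other member in each library.

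Likeness was measured as the difference of log2 ratios over these 2 libraries, among 140 arms with at least 1000 reads. The 4 arms nearest to miR-21-5p were miR-5109-3p at -0.46, miR-92-3p at -0.44, miR-140-3p at -0.43 and miR-146a-5p at -0.48. None of the reads of miR-5109-3p and miR-92-3p lay at known hairpins placed on the genome, so these names are less certain. All reads of miR-92-3p had a mismatch in both libraries, so none match that name exactly. The 4 nearest to miR-21-3p were miR-23a-3p at -0.02, miR-125a-5p at -0.03, miR-26a-5p at -0.01 and miR-100-5p at 0.00. All 4 lie well inside the wide interval of miR-21-3p.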

How the data were processed

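Small RNA was sequenced from total RNA of each sorted fraction, prepared with an Illumina TruSeq kit per the labels' protocols. Per the file headers and column description, the authors aligned reads with mammalian hairpins of miRBase, a genome and expressed sequences. Which aligner, release and build served is not given in the sources used here. The deposited reads per hairpin arm are expected counts, since reads that match more than 1 hairpin were divided among those hairpins. The copies of a listed sequence are deposited as whole counts. GC content is the authors' percent for each hairpin. No normalization is recorded.

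Reads were summed by name and arm; where a name lacked an arm, 1 arm was assigned for both libraries. Unnamed entries were left out, 0.555% of all reads on the CD49f-positive list, against 0.611% on the CD49f-negative list. Ratios are shares of named reads with 0.5 reads added. Intervals are Clopper-Pearson intervals of counts rounded to whole reads, except ratios within libraries, which have a log-normal approximation. Scaling factors came from edgeR 4.0.16 and DESeq2 1.42.0, used for nothing else (R 4.3.3). Python 3.11.15 with pandas 2.3.3 and SciPy 1.17.1 did the rest. Calling was tested on counts simulated with counting error only, which cannot show how calls hold against the spread between libraries. Named were both miR-21 arms, arms sharing a seed, the 2 nearest in rank on each side, the 4 nearest in ratio among arms with 1000 reads, and list members with 100 reads; miR-544, miR-205 and miR-21c are named besides, after their values were seen. The members and lists were chosen with earlier results of these data known.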

Additional observations from a re-analysis of the deposited data

How the results depend on the processing

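No paired analysis was possible because each group has 1 library, and for the same reason no replicate could be left out. The log2 ratio of miR-21-5p, -0.45 with the read total, was -0.0087 with TMM, 0.15 with the median of ratios, -0.17 without the 10 most abundant miRNAs in the total, -0.43 over reads with no mismatch and -0.28 for the listed sequence alone. Chosen after seeing the data, TMM gave -0.11 over arms with 100 reads, -0.20 over arms with 1000 and 0.37 over all arms; the median of ratios gave -0.021, -0.21 and 0.38, and a total without miR-34c-5p -0.59. The cause was not tested. The arms called lower, 74 with the read total, numbered 40 under TMM, 28 under median-of-ratios factors, 196, 158 and 26 with minimums of 0, 10 and 1000 reads, and 11 with a 4-fold rule. They numbered 49 and 15 with TMM over arms with 100 reads and all arms, and 40 and 15 with the median of ratios. The 6 called higher became 27 under TMM, 34 under median-of-ratios factors, 15 without the 10 most abundant miRNAs, 10, 10 and 1 with minimums of 0, 10 and 1000 reads, and 2 with a 4-fold rule. With TMM over arms with 100 reads, 1000 reads and all arms they became 17, 14 and 49, and with the median of ratios 26, 14 and 50.

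miR-21-3p stayed inside its own interval under all settings run, and the rank, arm share and mismatched share of miR-21 under those run for them. Of 57 other named miRNAs, 8 lost a call with TMM, 8 gained one in the same direction and 12 changed sign. With the median of ratios 9 lost a call, 10 gained one and 14 changed sign, and over reads with no mismatch 5 lost one and 5 changed sign. Of the 5 that lost a call over reads with no mismatch, miR-214-5p fell under 2-fold, at -0.92. The others stayed past 2-fold but had fewer than 100 such reads, the minimum for a call.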
